A study of Mus musculus with 2 samples.

Results

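The genes described here are 35 lysosomal genes, chosen by symbol from the 26037 genes of the deposited table. They encode hydrolases, the small proteins that help them act, and membrane proteins of the lysosome. All 35 were found, each on 1 row with the symbol that GENCODE M21 gives for its Ensembl identifier, and all 35 passed the filter on low values. Cathepsins and proton pump subunits were left out of the set, although Tpp1 and Ctsa, which remain in it, also encode proteases. RNA was sequenced from 2 cultures of C57BL/6 mouse bone marrow cells, 1 labelled control and 1 labelled MMP9 knockout, with no other sample in either group. Marrow came from mice aged 6 to 8 weeks and was grown in 10% serum with M-CSF, the macrophage growth factor, first at 5 ng/ml. Non-adherent cells were then kept for 3 days at 30 ng/ml, and the adherent macrophages of both groups received RANKL, the cytokine that drives osteoclast formation, for 3 days. In the headings of the table the control column also carries "NCsh" and the knockout column "sh". The labels leave these letters unexplained, so "knockout" is used here as the labels use it, with deletion and silencing of Mmp9 not told apart.

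Lysosomes are acidic organelles in which macromolecules are broken down by enzymes that each remove 1 kind of bond. Glycosidases cut sugars from chains, sulfatases remove sulfate groups, and lipid enzymes act on lipids that activator and carrier proteins hand to them. Loss of a single enzyme leaves its substrate undigested, which is the basis of the lysosomal storage diseases. In osteoclasts, the bone-resorbing cells, lysosomes also fuse with the membrane that faces bone and release their enzymes there. The transcription factors of the MiT family, among them TFEB, TFE3 and MITF, bind E-boxes with the core CACGTG in promoters of many lysosomal genes.

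For that reason the RefSeq promoter windows of GRCm38.p6 were searched for CACGTG, which reads the same on both strands. A window runs from 250 bases before an annotated start to 50 after it. Windows were found for 32 of the 35 members, 35 windows in all. Asah1, Galns and Npc1 had no entry. At least 1 CACGTG was present in the windows of 9 members (28.1% of 32), beside 8.09% of all 27025 genes in the table of windows and 12.3% of the 7585 compared genes matched to it by symbol. The 9 members held 16 copies. In all 16 a T preceded the core on at least 1 strand, giving TCACGTG, which overlaps the shorter motif; among all windows with CACGTG, 52.7% held TCACGTG. A match is a description of letters and says nothing on binding. The stretches before the start that hold the cores are shown because these genes differ widely in their values below; capitals mark CACGTG, and each line runs 5′ to 3′ on the strand of the gene.
Lamp1: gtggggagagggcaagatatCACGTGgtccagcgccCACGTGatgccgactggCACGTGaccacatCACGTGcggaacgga
Mcoln1: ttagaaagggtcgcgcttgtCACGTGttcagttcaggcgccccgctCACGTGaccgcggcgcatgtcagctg
Cln3: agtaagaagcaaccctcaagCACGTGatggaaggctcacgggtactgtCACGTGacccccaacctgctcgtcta
Gla: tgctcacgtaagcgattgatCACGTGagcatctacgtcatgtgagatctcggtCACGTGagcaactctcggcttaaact
Naglu: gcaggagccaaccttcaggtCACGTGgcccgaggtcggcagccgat
Glb1: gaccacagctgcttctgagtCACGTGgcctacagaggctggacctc
Sgsh: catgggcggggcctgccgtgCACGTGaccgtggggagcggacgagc
Gaa: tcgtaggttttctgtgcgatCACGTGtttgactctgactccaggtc
Ctsa: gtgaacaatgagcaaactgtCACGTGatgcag
In GRCm38.p6 these are chr8:13159080-13159160 (plus strand) for Lamp1, chr8:3500428-3500499 (plus) for Mcoln1 and chr7:126583332-126583405 (minus) for Cln3. Gla lies at chrX:134601174-134601252 (minus), Naglu at chr11:101070001-101070046 (plus) and Glb1 at chr9:114401010-114401055 (plus). Sgsh lies at chr11:119355514-119355559 (minus), Gaa at chr11:119267803-119267848 (plus) and Ctsa at chr2:164833741-164833772 (plus). Lamp1 had 4 copies, a number reached or passed in 8 of all 32851 windows. Ctsa had a further copy just after the start of the same window. Cln3 and Ctsa each had another window at the 5′ end of the gene, chr7:126585768-126586067 and chr2:164832622-164832921, and these held no CACGTG. Their copies thus lie at an annotated start further inside the gene.

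Arsb, Gm2a and Smpd1, the 3 members with the lowest ratios, held no CACGTG in their windows. The 60 bases before the start of each are given for contrast.
Arsb: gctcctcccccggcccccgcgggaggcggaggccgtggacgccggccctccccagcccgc
Gm2a: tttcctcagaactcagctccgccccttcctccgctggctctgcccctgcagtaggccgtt
Smpd1: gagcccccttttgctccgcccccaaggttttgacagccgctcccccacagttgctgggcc
They lie at chr13:93771619-93771678, chr11:55097925-55097984 and chr7:105554300-105554359, all on the plus strand of GRCm38.p6. That these letters are missing says only that they are not in these windows.

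Levels are normalised read counts, that is reads multiplied by 1 factor per library and not divided by gene length. The control held 20678441 reads and the knockout 17741432. Mmp9, the gene named in the labels, had a level of 139 against 3.87, 35.99-fold lower in the knockout (95% interval 30.8 to 42.3). Intervals in parentheses are exact, rest on read numbers and cover counting error only, because no second culture of either group exists and no test between genotypes is possible. All 10 osteoclast markers tried reached 2-fold lower, and their summed level was 6824 in control and 395 in knockout cells. Mmp9 itself is 1 of these 10, so its lower level is not a further result. Ctsk, Oscar and Itgb3, which the labels do not name, were 87.2-fold, 95.9-fold and 96.5-fold lower. The remaining markers were lower by less than Mmp9. The level of Mmp9 alone therefore does not check the knockout label. Of 10 macrophage markers 8 were compared, 5 were higher and 1 was lower, with sums of 1011 and 1364. Fcgr1, Mrc1 and Mertk had no read in the control and 468, 5 and 1 reads in the knockout, so Mrc1 and Mertk were nearly absent from both. Dendritic cell markers summed to 15.7 and 1.92, nearly all from Itgax and Zbtb46, and those of neutrophils, stromal, B, T and NK, mast and erythroid cells to at most 0.870 per list and library. The part of these marker differences in the values below was not tested. Fewer cells of a type and less RNA per cell cannot be told apart in such bulk samples.

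Many of the lysosomal genes were lower in the knockout library, although fewer than those that stayed within 2-fold. A gene counted as lower or higher when the log2 ratio with a pseudocount of 1 reached 2-fold, among genes with a mean level of at least 1. By that rule 17 of 35 members were lower, 0 were higher and 18 were within 2-fold. Among all 11126 compared genes 9.58% were lower and 4% higher. Between the lowest and the highest mean level of the members, 9.15 and 493, the share of lower genes was 9.04% of 7419. The median log2 ratio of the members was -0.95 and that of all compared genes -0.16. Ratios were below 0 for 31 members, beside 6971 of the 11126 compared genes, and above 0 for 4 members, namely Ppt1, Galc, Lipa and Lamp1; the signs of Galc, Cln3 and Galns turned under at least 1 of the scalings or centrings tried. The count of lower members was 10 with both libraries scaled to equal sums, where 6.15% of all genes were lower, and 10 after centring in bins of transcript GC content, where 6.37% were.

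**Figure D1:**
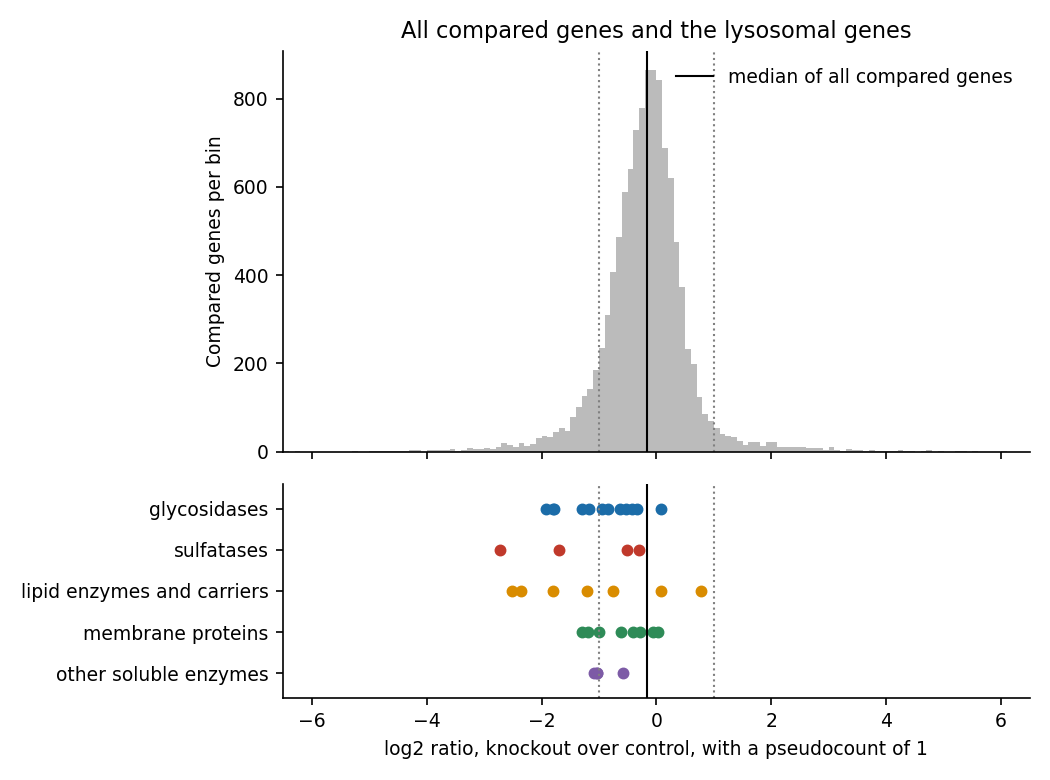
Histogram of the log2 ratio (knockout over control, pseudocount of 1) of all 11126 compared genes, with the 35 lysosomal genes below as points by class; the solid line is the median of all compared genes and dotted lines mark 2-fold. Most points lie to the left of the median line, and the lowest is Arsb at -2.72.

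Together the 35 genes took 0.782% of all reads in the control (0.779 to 0.786) and 0.463% in the knockout (0.460 to 0.467). Their summed level was 4020.4 in control and 1953 in knockout cells. The classes did not share this difference evenly. Sulfatases went from 353 to 88.0, glycosidases from 1081 to 525, lipid enzymes and carriers from 1374 to 617, and other soluble enzymes from 748 to 368. Single genes weigh heavily in such sums, and Arsb alone made up 260.4 and 38.7 of those of the sulfatases. Membrane proteins went from 465 to 355, so their share of the reads on members was 11.6% in control and 18.2% in knockout cells. This share does not depend on how the libraries are scaled to each other. Of the reads on membrane proteins, Lamp1 alone held 6656 of 18701 in control and 7124 of 14938 in knockout cells.

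**Figure D2:**
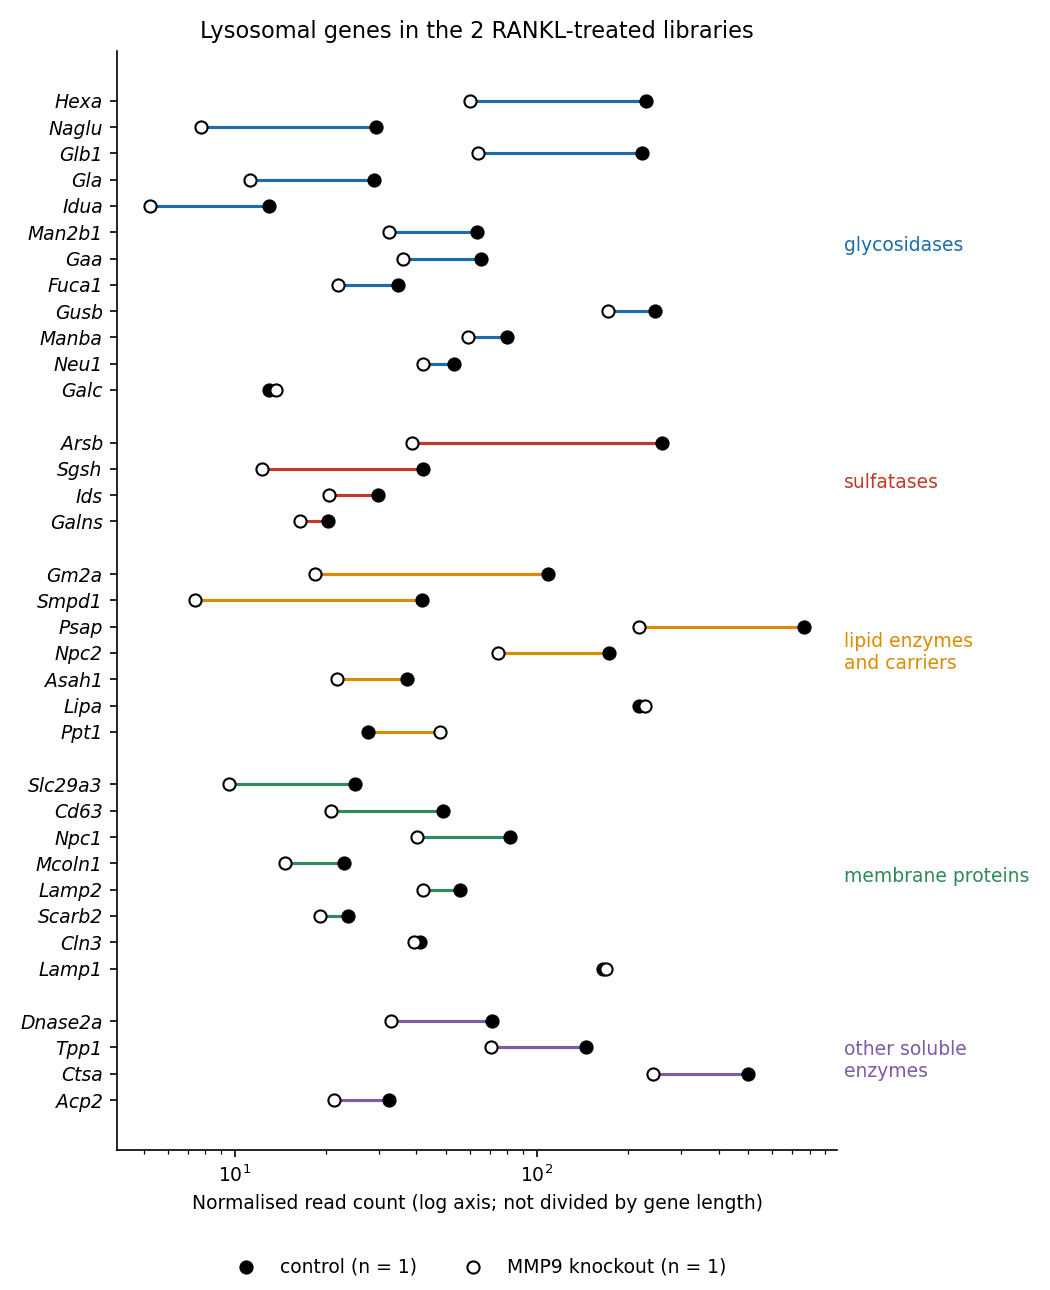
Normalised read count (log axis) of each lysosomal gene in the control (filled) and the MMP9 knockout (open), 1 library each, grouped by class and ordered by ratio. The open point lies left of the filled one in 31 of 35 genes, and the pairs of Galc, Lipa, Cln3 and Lamp1 nearly coincide.

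Of the 12 glycosidases 5 were lower and 0 higher, and their median log2 ratio was -0.89. Hexa encodes the alpha chain of beta-hexosaminidase A, the enzyme that trims GM2 ganglioside and is missing in Tay-Sachs disease. Its level was 231 in control and 60.2 in knockout cells, 3.83-fold lower (3.67 to 4.01). Naglu, an enzyme of heparan sulfate breakdown, was 29.4 and 7.74, 3.80-fold lower (3.35 to 4.30). Glb1, the lysosomal beta-galactosidase that acts on GM1 ganglioside and keratan sulfate, was 222 and 63.7, 3.49-fold lower (3.34 to 3.65). These 3 genes stood at nearly the same ratio, whereas their control levels per kilobase of transcript were 116, 11.5 and 79.3. Gla, the alpha-galactosidase deficient in Fabry disease, was 28.97 and 11.3, or 2.57-fold lower (2.31 to 2.87). Idua, the iduronidase deficient in Hurler syndrome, rested on the fewest reads of the lower members, 525 and 221, at levels of 13.05 and 5.25 (2.48-fold, 2.12 to 2.92).

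The other glycosidases stayed within 2-fold. Man2b1, an alpha-mannosidase, was 63.6 and 32.5, and its counting interval of 1.83-fold to 2.09-fold lower included 2-fold. Gaa, which digests glycogen and is deficient in Pompe disease, was 65.6 and 36.1. Fuca1, which removes fucose, was 34.9 in control and 21.97 in knockout cells. Gusb, the beta-glucuronidase, was 247 and 172, 1.44-fold lower (1.40 to 1.48). Manba, a beta-mannosidase, was 79.5 and 59.2, and the sialidase gene Neu1 was 53.2 and 41.95. Galc, the galactosylceramidase deficient in Krabbe disease, was 13.02 and 13.8, and its interval of 0.937 to 1.19 for knockout over control included 1. The class thus ran from 26.1% of the control level left in Hexa to Galc, whose log2 ratio was 0.24, 0.25 and 0.34, above the counting interval of the deposited values on the same scale, with the median set to 0, a trimmed mean and equal sums.

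Sulfatases divided into 2 lower genes and 2 within 2-fold, with a median of -1.11. Arsb, which removes sulfate from dermatan and chondroitin sulfate, was at 260.4 in control and 38.7 in knockout cells, on 10479 and 1630 reads. Its 6.72-fold lower level (6.38 to 7.09) was the lowest ratio of the 35 genes, and 0.791% of all compared genes lay below it. Arsb (ENSMUSG00000042082) spans 93771630 to 93943016 of chromosome 13 in GRCm38, plus strand. It shares 32.3% of its exon bases with Gm26527 on the other strand, a gene with no row matched in the table. Sgsh, the heparan N-sulfatase, was 42.2 and 12.3, 3.43-fold lower (3.11 to 3.80). It shares 21.6% of its exon bases with Card14 on the other strand, itself 12.1 and 2.30. The sources used here do not say whether counting used strand, so reads of such overlapping genes cannot be assigned with certainty. Ids, the iduronate sulfatase deficient in Hunter syndrome, was 29.8 and 20.5, and Galns, a sulfatase of keratan sulfate, was 20.4 and 16.5. The step that activates every sulfatase is made by the enzyme of Sumf1, which was 28.4 and 20.1.

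Lipid enzymes and their carriers gave the widest spread, 4 of 7 being lower and 0 higher, at a median of -1.20. Gm2a encodes the activator protein that presents GM2 ganglioside to beta-hexosaminidase A, and it was 109 and 18.4, 5.93-fold lower (5.50 to 6.41). Smpd1, the acid sphingomyelinase, was 41.7 and 7.39, or 5.65-fold lower (5.00 to 6.40). Psap, the precursor of the saposins that help degrade sphingolipids, ranked first per kilobase of transcript in both libraries. Its level was 767 in control and 218 in knockout cells (3.51-fold lower, 3.43 to 3.60), and it made up 19.1% and 11.2% of the reads on members. Npc2, the soluble carrier that takes cholesterol out of lysosomal membranes, was 173 and 74.7 (2.32-fold lower, 2.22 to 2.42).

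Asah1, the acid ceramidase, was 37.3 in control and 21.8 in knockout cells, within 2-fold. Lipa, the acid lipase that splits cholesteryl esters and triglycerides, was 218 and 229, 1.05-fold higher (1.02 to 1.08). Ppt1, the thioesterase that removes palmitate from proteins, was 27.6 and 47.8. At 1.73-fold higher (1.61 to 1.86) it had the highest ratio of the 35 genes, above 94.3% of all compared genes. Lipa and Ppt1 were thus on the other side of 0 from Gm2a, Smpd1 and Psap in the same class.

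Of the 5 classes, membrane proteins had the median closest to that of all compared genes, 3 of 8 being lower and 0 higher, at a median of -0.51. The 3 were Slc29a3, a nucleoside transporter (25.02 and 9.60, 2.61-fold lower, 2.32 to 2.93), the tetraspanin gene Cd63 (49.1 and 20.8, 2.36-fold, 2.18 to 2.56) and Npc1. Npc1, the cholesterol exporter that works with Npc2, was 81.6 and 40.2, and its log2 ratio of -1.003 only just reached the threshold. Slc29a3 alone stayed lower by 2-fold after centring by GC content or by length, and likewise with the libraries scaled to equal sums, so that the count was then 1 of 8. After GC centring the median of membrane proteins was -0.44 and that of glycosidases -0.48, against -0.51 and -0.89 before it. Medians of the other classes then ran from -0.99 to -0.72. The distance of membrane proteins from glycosidases thus depended on the processing. Mcoln1, a cation channel that lets calcium out of lysosomes, was 22.98 and 14.7. Lamp2, a glycoprotein of the lysosomal membrane, was 55.9 and 41.95, and Scarb2, a further glycoprotein of that membrane, was 23.7 and 19.2. Cln3, the gene of a juvenile form of Batten disease, was 41.05 and 39.2 on 1652 reads in each library.

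Lamp1, a main glycoprotein of the same membrane as Lamp2, was 165 in control and 169 in knockout cells, and its interval of 0.989 to 1.06 included 1. The ratio of Lamp1 to Lamp2 and to the enzymes does not depend on scaling. Per kilobase of the longest GENCODE transcript, Psap was 289 in the control against 74.2 for Lamp1. In the knockout they were 82.2 and 75.9, and Lamp1 moved from rank 6 to rank 2 among the members. Arsb moved from rank 7 to rank 16 and Smpd1 from rank 15 to rank 31. Ppt1 moved the other way, from rank 25 to rank 10.

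Among the other soluble enzymes 3 of 4 were lower, with a median of -1.04. All 3 lay close to the threshold. Dnase2a, the acid DNase that digests DNA of engulfed cells, was 71.2 and 33.0 (2.16-fold lower, 2.02 to 2.30). It shares 29.99% of its exon bases with Mast1 on the other strand, which was 8.70 and 4.68. Tpp1, a tripeptidyl peptidase, was 146 and 70.5 (2.07-fold, 1.98 to 2.16). Ctsa, which protects Glb1 and Neu1 from degradation in a complex, was 499 and 243 (2.05-fold, 2.01 to 2.10), and per kilobase it ranked second among the members in the control. Its exons share 10.5% of their bases with Pltp on the other strand, 49.9 in control and 5.56 in knockout cells. Acp2, the lysosomal acid phosphatase, was 32.3 and 21.3. With the median log2 ratio of all genes set to 0, a shift of 0.18, 0 of the 4 reached 2-fold, and likewise with a trimmed mean, equal sums and centring by GC content or length.

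**Figure D3:**
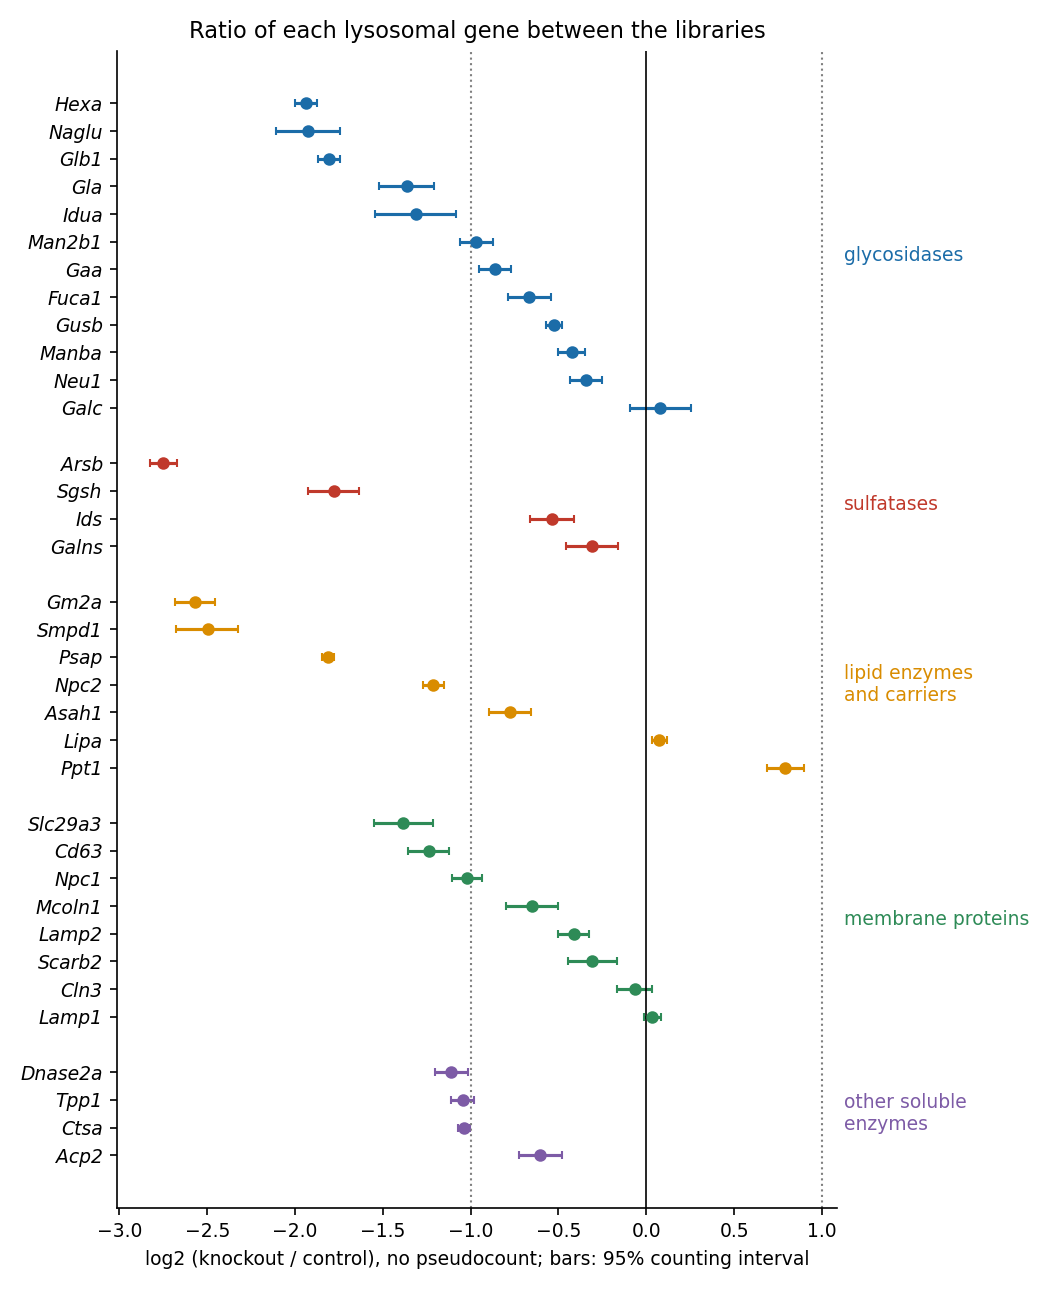
log2 ratio of knockout to control without a pseudocount for each lysosomal gene, with the 95% counting interval from the reads of the 2 libraries; dotted lines mark 2-fold. Arsb, Gm2a and Smpd1 lie lowest, the intervals of Galc, Cln3 and Lamp1 include 0, and Ppt1 lies highest.

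Read by substrate, the members and a few further enzymes form breakdown chains. For glycosaminoglycans 10 of 14 genes (71.4%) were lower and 0 higher, with a median of -1.38. Over the alternatives 8 to 10 were lower. Among all compared genes 9.58% were lower and 4% higher. Of the 14 genes 9 are members. Heparan sulfate is taken apart by enzymes acting in turn, and its genes were unequal. Idua, Sgsh and Naglu were lower by at least 2-fold, whereas Ids, Gusb and Hgsnat (17.4 and 12.97), an acetyltransferase of the membrane, were within 2-fold. Hyal1, a hyaluronidase, was 80.7 and 7.39, 10.9-fold lower (9.72 to 12.3), beyond any member. Hgsnat was named after its values were seen.

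For sphingolipids 8 of 13 genes (61.5%) were lower and 0 higher, with a median of -1.37, beside 9.58% lower among all compared genes. The count was 7 with GC centring. Hexa and Gm2a, which act together on GM2 ganglioside, were both lower, and Galc, which removes galactose from ceramide, was within 2-fold. For oligosaccharides of glycoproteins 4 of 10 (40%) were lower, and the mannosidases, Fuca1 and Neu1 were not among them. The count was 3 with each of the other scalings and both centrings. For cholesterol Npc1 and Npc2 were lower and Lipa was not; of these 3 genes 0 were lower with equal sums or GC centring and 1 with the median set to 0, a trimmed mean, length centring or a pseudocount of 5. The complex of Ctsa, Glb1 and Neu1 gave 2.05-fold, 3.49-fold and 1.27-fold lower levels, so its parts were unequal. The lists share members, and their counts are not separate results.

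Other genes listed under the lysosome gave the following, and the place of each protein in the cell was not checked. Of 24 compared hydrolases outside the set 9 (37.5%) were lower and 2 higher, with a median of -0.61. Among all compared genes 9.58% were lower and 4% higher. The lower count of these hydrolases ran from 6 of 22 with GC centring to 10 with a pseudocount of 0.1. Hyal1, Smpdl3a (8.40 and 1.81) and Naaa (23.5 and 6.68) had the lowest ratios, and the higher ones were Pld4 (14.6 and 48.2) and Smpdl3b (6.09 and 18.4), the last named after its values were seen. Of 21 compared membrane proteins outside the set 7 (33.3%) were lower and 0 higher, with a median of -0.63. With a pseudocount of 5 or GC centring 5 of them were lower. The chloride channel gene Clcn7 was 219 and 33.2, Abca2 55.6 and 15.4, the sialic acid exporter gene Slc17a5 45.02 and 14.9, and Ostm1, the partner of Clcn7, 74.4 and 27.01. Cd68, a macrophage marker of the lysosomal membrane, was 150.2 and 60.9.

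Soluble enzymes reach the lysosome by a mannose 6-phosphate tag and its receptors. Of 14 genes for sulfatase activation and this route 2 were lower, Gnptab and Vps29, with a median of -0.56. Gnptab, which makes the tag, was 259.5 and 62.05 (4.18-fold lower, 4.01 to 4.37), and Vps29, a retromer subunit, was 33.7 and 15.7. The count was 1 with a pseudocount of 5, each of the 3 other scalings and length centring, where Vps29 was within 2-fold. The receptor genes M6pr (437 and 473) and Igf2r (515 and 259.5), named after their values were seen, were within 2-fold on the pseudocount scale. Of 15 genes of vesicle traffic to the lysosome 3 were lower, Plekhm1 (176 and 51.1), Ap3d1 and Arl8b, and 1 was lower with equal sums. Lower genes made up 14.3% of the 14 and 20% of the 15, beside 9.58% of all compared genes. With equal sums 6.15% of all compared genes were lower. These lists were not tested against that share.

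**Figure D4:**
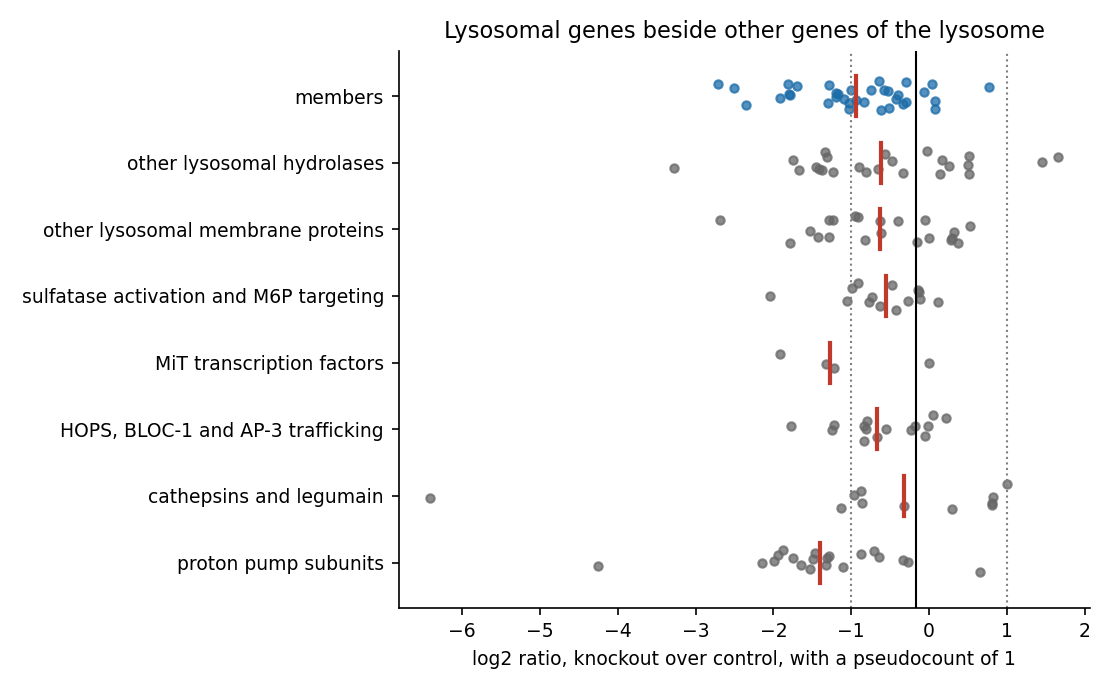
log2 ratio (knockout over control, pseudocount of 1) of the compared genes in the lysosomal set and in 7 other lists of lysosome genes; each point is a gene, red bars are list medians, the solid line is the median of all compared genes and dotted lines mark 2-fold; vertical scatter is for display. Proton pump subunits lie lowest as a list, and cathepsins spread from Ctsk at -6.41 to values near 1.

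Beside the set, proton pump subunits gave 14 lower of 20 compared with a median of -1.40, and cathepsins with legumain 2 lower of 11 with a median of -0.32. Lower genes were thus 70% and 18.2% of these lists, beside 9.58% of all compared genes. Pump subunits had a lower median than the members and cathepsins a higher one, and neither difference was tested. The lower count of pump subunits was 13 with each of the other scalings and GC centring and 11 with length centring. Their median was -1.12 with equal sums. The cathepsin median was -0.04 with equal sums, where 4 passed 2-fold upward and 1 downward; the lower count was 1 also with a pseudocount of 5, the other scalings and both centrings. The 2 lower cathepsins were Ctsk (3745 and 42.9) and Ctsf (33.99 and 14.97), whereas Ctsb (790.1 and 429) and Ctsd (810 and 413) were within 2-fold.

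Of the 4 MiT factor genes 3 (75%) were lower, beside 9.58% of all compared genes. The count was 2 with a pseudocount of 5 or GC centring, and 2 of 3 with a mean of at least 5. Mitf was 70.5 and 27.6 (2.55-fold lower, 2.38 to 2.73), and Tfec (Tcfec in the table) 9.81 and 1.85 (5.30-fold, 4.15 to 6.84). Tfeb (Tcfeb) was 3.70 and 1.02 on only 149 and 43 reads (3.62-fold lower, 2.57 to 5.21). Tfe3 (Tcfe3) was 33.2 in control and 33.2 in knockout cells. Of the 9 members with CACGTG in a promoter window 5 were lower by 2-fold, and of the 23 without it 11 were, with medians of -1.04 and -0.95. Over compared genes 8.66% of the 935 with the motif and 10.3% of the 6650 without it were lower. Naglu, Glb1, Sgsh, Gla and Ctsa were the 5 lower ones, whereas Lamp1, with the 4 copies shown above, and Cln3, with 2, did not differ beyond counting error at the deposited scaling. With the other 3 scalings and both centrings Lamp1 was between 0.21 and 0.32 and Cln3 between 0.11 and 0.22, above the counting intervals of the deposited values on that scale.

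**Figure D5:**
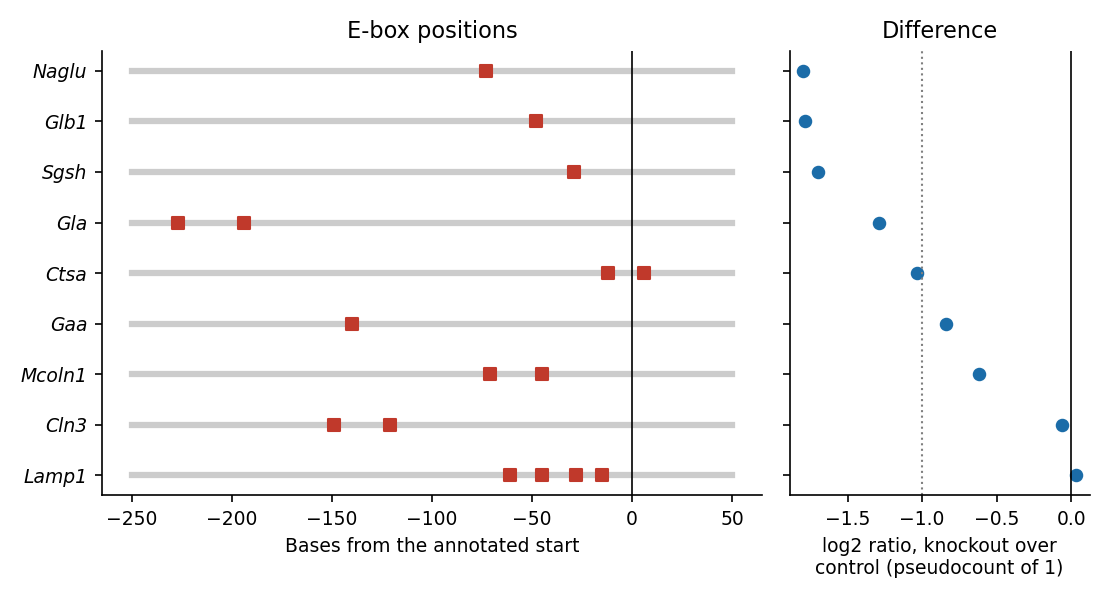
Left, position of each CACGTG (red squares) in the promoter windows of the 9 members that hold it, in bases from the annotated start; right, log2 ratio of each gene (pseudocount of 1), with 2-fold dotted. Genes are ordered by ratio, from Naglu at -1.80 to Lamp1 at 0.03.

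Base composition moved with the ratio across the whole table. Over 10707 compared genes with a known transcript, Spearman's rho of the log2 ratio with GC content was -0.31, and over the 35 members it was -0.47; all points come from the same 2 libraries. The median GC content of the members was 51.1% and that of compared genes 49.5%. Galc, Lamp2 and Ids, 3 members of low GC content at 38.3%, 38.7% and 41.4%, were within 2-fold, and so was Gaa at 59.5%, the second highest, and Galns at 55.6%; Naglu, at 59.8%, was the member of highest GC content. After centring by GC content the median of the members was -0.71, and Arsb, Gm2a, Smpd1, Hexa, Glb1, Psap, Naglu, Sgsh, Gla and Slc29a3 were lower by at least 2-fold. These 10 genes reached 2-fold under every one of the 9 alternatives tried on single genes. The alternatives that changed only the filter on low values could not alter the ratio of any member, as all had a mean of at least 5.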

How the data were processed

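Per the submitters' processing notes, TopHat and the build mm9 were used. Version, counter, gene annotation, strand setting and normalisation method are items not given in the sources used here. Log2 values were deposited in 1 table, titled as normalised RPKM. Converted from log2, 99.99% of the values with a read in either library lay within 0.05 of whole multiples of 1 step per library (0.0248 in the control, 0.0238 in the knockout), equal for all genes, so they were treated as reads times 1 factor, without division by length. Genes at the lowest value, 0.9 of the step, were set to 0; 3 reads, the limit for a count of 0, correspond to 0.0745 and 0.0713.

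The log2 ratio used a pseudocount of 1, which understates differences of low genes, and a mean of at least 1. Folds carry no pseudocount, with exact conditional binomial 95% intervals; reads are not independent molecules, so these are likely too narrow. The computation was tested on simulated reads that held counting error only, the error the intervals assume (Python 3.11.15, scipy 1.17.1). The limit set for interval coverage was loosened after a first run. Such a test cannot show how the intervals hold between cultures. The named genes are Mmp9, the members, the MiT factors and, of each other list, the first 2 and up to 4 with the largest ratios past 2-fold; some genes of the lists enter the counts and medians and are not reported here by name. The members, lists and rules were chosen with earlier results of these data known. GENCODE M21 (GRCm38) gave lengths, GC content and exon overlap by Ensembl identifier, and RefSeq the promoters; the last part of 29 of 35 windows was found near the start of a transcript of the gene.

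Alternatives were pseudocounts of 0.1 and 5, no filter or a mean of at least 5, scaling by the median, by a trimmed mean (30% of ratios and 5% of levels at each end) or to equal sums, and centring in 20 bins of GC content or of transcript length. The mean for the median, the set without Tpp1 and Ctsa, and Galc among the lipid enzymes were also tried.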

Additional observations from a re-analysis of the deposited data

How the results depend on the processing

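No paired analysis was possible because each group had a single library, which also means that none could be omitted. With equal sums 10 members were lower and 1, Ppt1, was higher by at least 2-fold; after centring by GC content 10 were lower and 0 higher. Membrane proteins then gave 1 lower gene with equal sums, 1 with GC centring and 1 with length centring. Other soluble enzymes gave 0 with the median set to 0, 0 with the trimmed mean, 0 with equal sums, 0 with GC centring and 0 with length centring. The members' median log2 ratio was -0.82 with a pseudocount of 5, -0.77 with the median set to 0, -0.76 with the trimmed mean, -0.67 with equal sums, -0.71 with GC centring, -0.85 with length centring and -0.84 without Tpp1 and Ctsa. The counts of lower glycosidases, sulfatases and lipid enzymes stayed within 1.5 times under each alternative. Over the members and Mmp9, 158 alternative ratios fell inside the counting interval of the gene and 166 fell outside. The 158 include the ratios with no filter and with a mean of at least 5, which repeat the main value by construction. Of the members, Cln3, Galc and Galns changed sign under at least 1 alternative, and none of them had passed 2-fold. Scaling shifts of at most 0.29 could not have turned the sign of a 2-fold difference. The spread between cultures is unknown, and no depth can replace it.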
